A study of Mus musculus with 50 samples.

Results

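In mouse embryonic stem (ES) cells without NSD1, fragments were scarcer at 4 loci of secreted factors than in wild type. Scaled to library size, all 4 knockout libraries lay below both wild type libraries there. The loci were Gm16263, which lies opposite the growth factor gene Fgf10, Gm17443, opposite the growth factor gene Nrg1, the cytokine gene Il17d and the Nodal antagonist gene Lefty2. Gm16263 and Lefty2 were lowest in the line KO1, Gm17443 was lowest in the line KO2, and Il17d stood at about the same level in both lines. At Lefty2 the line KO2 lay close to wild type, and its higher library held the same 33 counts as the lower wild type library. Fgf10, Nrg1 and Lefty1 held at most 2 counts in any library, and Nodal held 1 to 8. These 8 genes, of 37310 in the tables, were chosen from measured values of these same libraries, those of the knockout lines against wild type. Their differences from wild type are therefore a description, given without a test. Of all tested genes, 10.1% had all 4 knockout libraries below both wild type libraries in CPM, and nothing is read from this beside loci chosen on the same differences. A filter on low counts kept 5034 genes, among them 4 of the 8, Gm16263, Gm17443, Il17d and Lefty2.

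The cells were J1, a line of mouse ES cells of the strain 129S4/SvJae, untreated and grown on gelatin in serum with the cytokine LIF. RNA was sequenced from wild type cells and from the NSD1-/- lines KO1 and KO2. Each of these 3 groups had 2 libraries. NSD1 is the enzyme known for dimethylation of histone H3 at lysine 36, and the comparison asks which transcripts change in its absence. How the lines were made and whether each is a clone are not given in the sources used here. Nor is it given whether a group's libraries stem from separate cultures. The p-values reflect the spread between libraries of the same group alone, which may be technical. For the lines together they therefore leave out the spread between KO1 and KO2.

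Total counts ran from 1150089 to 1285487 per library, so 1 count stood for 0.791 to 0.872 CPM (counts per 1000000 of the effective library size). The fragments were taken to stem from the strand facing the counted gene, because, with the ribosomal RNA locus AY036118 left out, 89.7% of counts fell on the 5431 genes with an exon that faces an exon of another gene. At Il17d, Lefty1, Lefty2 and Nodal no gene is annotated on the other strand. By the strand taken here, their fragments would stem from an unannotated transcript opposite, but a part from their own transcripts cannot be told apart. Counts at these genes therefore need not measure their own transcripts. The targeted gene Nsd1, whose counts on that strand do not check its loss, held 21 and 25 counts in wild type, against 55 and 38 for KO1 and 27 and 21 for KO2. By their own symbols the 8 ES cell markers summed to 169 to 215 counts per library. The 3 neuroectoderm markers in the annotation summed to 160 to 218, with 1 of them at 0 and up to 215 counts at a single marker. No counted gene lies opposite an ES cell marker, so these counts do not check the cell type. Fewer cells with a transcript and less of it per cell cannot be told apart in these bulk libraries. Of the 3 counted genes that lie opposite markers of another cell type, fibroblasts, 2 were also low in the knockout lines. Gm17329, opposite the collagen gene Col1a1, held 78 and 94 counts in wild type, against 4 and 3 for KO1 and 4 and 1 for KO2, and Syn3, opposite the metalloproteinase inhibitor gene Timp3, held 75 and 97, 16 and 19, and 9 and 15. With Apol7d, opposite the fibronectin gene Fn1, they summed to 1491 to 1593 counts per library for wild type, 1503 to 1550 for KO1 and 1324 to 1484 for KO2. By their own symbols the 6 fibroblast markers held 29 to 33 counts per wild type library, 39 to 50 per KO1 library and 32 in each KO2 library, with 3 of the 6 at 0. Their part in the results below was not tested.

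FGF10 is a secreted ligand that mesenchyme sends to neighbouring epithelium, where it binds the receptor FGFR2, and it is known for the outgrowth of limb and lung. Neuregulin 1, the product of Nrg1, is a ligand of the ERBB3 and ERBB4 receptors with roles in heart, nerve and glia. IL-17D is a member of the IL-17 family of cytokines. Nodal is a ligand of the TGF-beta family that signals through activin receptors and the TDGF1 coreceptor to SMAD2 and SMAD3, which act with FOXH1. Lefty1 and Lefty2 are secreted antagonists that block Nodal and its coreceptor, and they are themselves targets of Nodal signalling, which forms a negative feedback loop. In mouse ES cells Nodal and the Lefty genes are known to be expressed.

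The 2 antisense loci meet their growth factor genes over short stretches, shown here because these are the exon bases at which a fragment could belong to either gene. All coordinates are mm9, and the sequences are from the mm9 genome on the strand of the growth factor gene, with the start codon in capitals. Gm16263 (chr13:119484099-119504203, minus strand, 502 exon bases in a single transcript) starts 697 bases after the start of the coding Fgf10 transcript and runs against it, inside the span of Fgf10 (chr13:119458598-119580922, plus strand). Of its exon bases 123, or 24.5%, lie opposite Fgf10 exons. Of these, 54 lie opposite an exon of noncoding Fgf10 transcripts, the most upstream of which starts 44908 bases before the coding one, and 69 lie opposite the first coding exon, 56 of them in the 5′ UTR and 13 in the coding sequence. Gm17443 (chr8:33118976-33126231, plus strand, 4611 exon bases) covers the start of Nrg1 (chr8:32928500-33119581, minus strand), which falls on its 606th base, and runs 6650 bases beyond it. It shares 100 bases with the first coding exon of Nrg1, so 97.8% of its exon bases have no annotated exon opposite.
Fgf10 noncoding exon, chr13:119492002-119492055, plus strand: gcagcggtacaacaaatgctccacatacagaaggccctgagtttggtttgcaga
Fgf10 coding start, chr13:119504191-119504203, plus strand: ATGtggaaatgga
Nrg1 coding start, chr8:33119482-33119581, minus strand: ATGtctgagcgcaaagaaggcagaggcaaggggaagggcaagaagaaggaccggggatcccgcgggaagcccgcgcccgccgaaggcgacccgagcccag

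**Figure D1:**
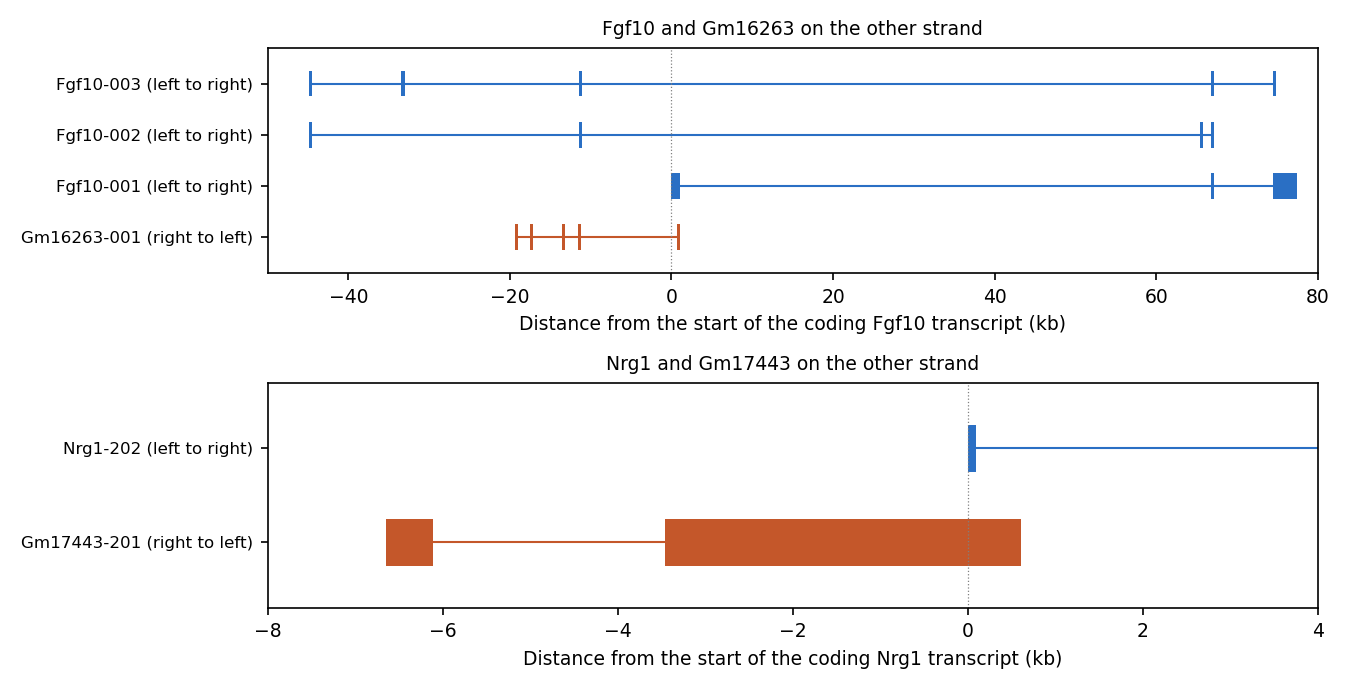
Exons (boxes) of Fgf10 with Gm16263 (top) and of Nrg1 with Gm17443 (bottom), by distance in kb from the start of the coding growth factor transcript, drawn so that the growth factor gene runs left to right; boxes of short exons have a minimum width. Gm16263 starts 697 bases inside the coding Fgf10 transcript, while most of Gm17443 lies upstream of Nrg1. Of Nrg1 only the transcript Nrg1-202 is drawn, as the others start outside the range shown.

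Gm16263, opposite Fgf10, held 42 and 46 counts in wild type, against 12 and 13 for KO1 and 24 and 30 for KO2. Wild type was highest, KO2 lay between and KO1 was lowest. The mean CPM was 37.1 ± 1.63 for wild type, 10.1 ± 0.83 for KO1 and 22.6 ± 2.31 for KO2 (SD, n = 2 each). The log2 fold change against wild type was -1.87 ± 0.30 in KO1 and -0.71 ± 0.25 in KO2, and -1.29 ± 0.23 for the lines together (standard errors of the fit).

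Fgf10 itself held 1 count in each wild type library, 0 and 1 in KO1, and 0 and 2 in KO2. Every group stood at or under the limit of 3 counts that a count of 0 allows, so no fold change is given. Per kb of exon, the mean level in wild type was 73.9 CPM per kb at Gm16263 and 0.183 at Fgf10. Of the pair, only Gm16263 held counts enough to be compared. By the strand taken here, fragments counted at Gm16263 would stem from the strand of Fgf10, and those counted at Fgf10 from the strand of Gm16263. The counts at Gm16263 therefore need not measure its own transcript.

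Gm17443, opposite Nrg1, held 29 and 34 counts in wild type, against 23 and 15 for KO1 and 6 and 7 for KO2. Wild type was again highest, but the order of the lines was the other way round, with KO2 lowest. The mean CPM was 26.6 ± 2.44 for wild type, 15.2 ± 4.16 for KO1 and 5.44 ± 0.293 for KO2 (SD, n = 2 each). The log2 fold change was -0.79 ± 0.30 in KO1, -2.26 ± 0.38 in KO2 and -1.53 ± 0.29 for the lines together.

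Nrg1 held 0 counts in both wild type libraries, against 1 and 0 for KO1 and 1 and 0 for KO2. This was again within the limit of 3 counts, so its counts were not detectable as different at this depth. By the strand taken here, fragments counted at Gm17443 would stem from the strand of Nrg1, and those counted at Nrg1 from the strand of Gm17443. Per kb of exon, Gm17443 stood at 5.76 CPM per kb for wild type, 3.31 for KO1 and 1.18 for KO2.

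Il17d (chr14:58143666-58162002, plus strand), the cytokine gene, held 31 and 39 counts in wild type, against 12 and 17 for KO1 and 19 and 11 for KO2. Both lines lay below wild type, and their own ranges overlapped. The mean CPM was 29.5 ± 4.17 for wild type, 11.7 ± 3.15 for KO1 and 12.7 ± 5.44 for KO2 (SD, n = 2 each). The log2 fold change was -1.33 ± 0.32 in KO1, -1.22 ± 0.32 in KO2 and -1.28 ± 0.27 for the lines together.

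Lefty2 (chr1:182823239-182829234, plus strand), the Nodal antagonist gene, held 42 and 33 counts in wild type, against 13 and 13 for KO1 and 28 and 33 for KO2. KO1 lay well below the other libraries, while the higher KO2 library, at 26.6 CPM, came close to the lower wild type library, at 27.5 CPM. The mean CPM was 31.7 ± 6.02 for wild type, 10.5 ± 0.271 for KO1 and 25.5 ± 1.56 for KO2 (SD, n = 2 each). The log2 fold change was -1.59 ± 0.31 in KO1, -0.31 ± 0.26 in KO2 and -0.95 ± 0.24 for the lines together.

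**Figure D2:**
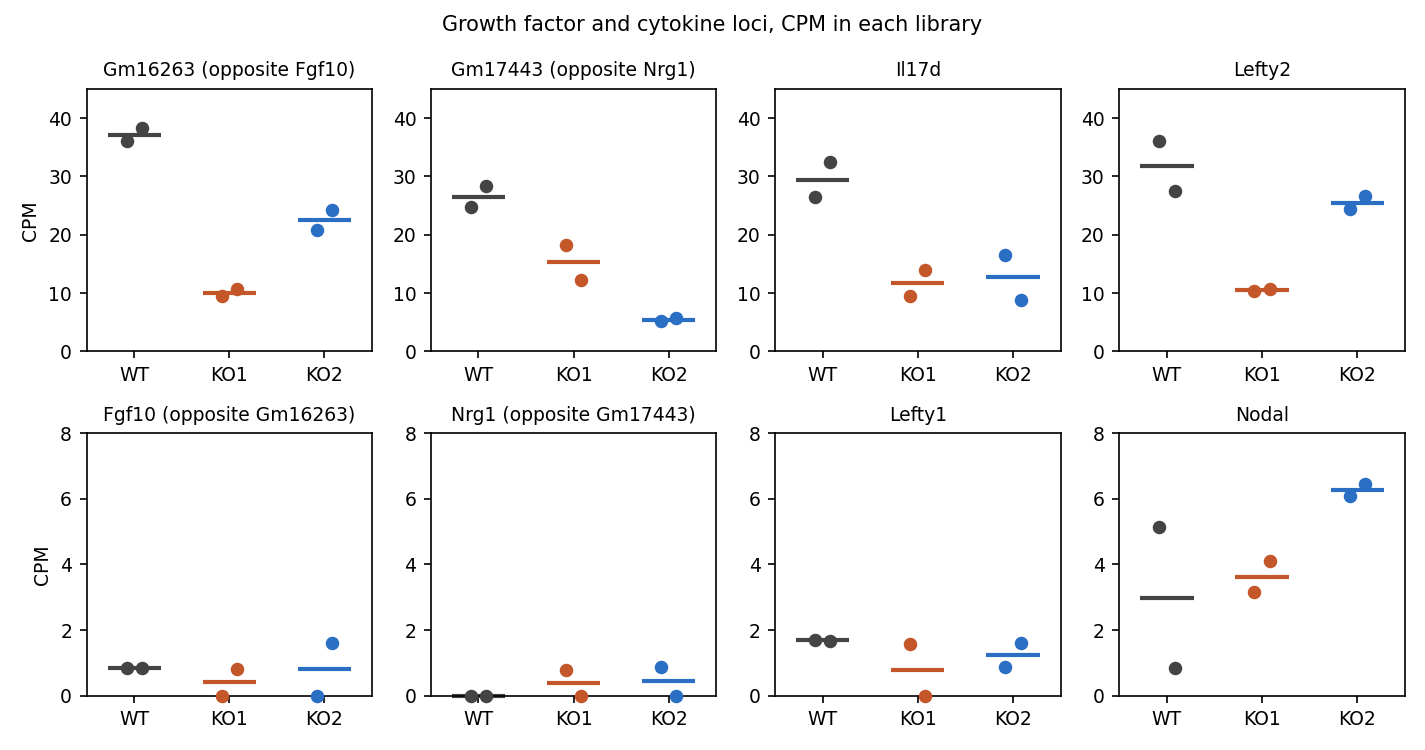
CPM in each library (points) and the mean of each group of 2 (bars) for the 8 loci, with a vertical scale to 45 CPM in the top row and to 8 CPM in the bottom row. At Gm16263, Gm17443, Il17d and Lefty2 the 4 knockout libraries lie below both wild type libraries. At Lefty2 the higher KO2 library, at 26.6 CPM, is close to the lower wild type library, at 27.5 CPM. The lines KO1 and KO2 stand in opposite order at Gm16263 and Gm17443.

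Per kb of exon, the order of the 4 loci in wild type was Gm16263 at 73.9 CPM per kb, Il17d at 23.9, Lefty2 at 12.1 and Gm17443 at 5.76. In KO1 Gm16263 was still highest at 20.1, with Il17d at 9.49, Lefty2 at 4.01 and Gm17443 at 3.31 CPM per kb.

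Lefty1 (chr1:182865153-182868531, plus strand), the other antagonist gene, starts 35918 bases after the end of Lefty2. It held 2 and 2 counts in wild type, against 2 and 0 for KO1 and 1 and 2 for KO2, and the groups overlapped. The ratio of summed counts, knockout lines over wild type and scaled to library size, was 0.608 with an exact 95% interval of 0.131 to 3.07, which covers counting error only. In wild type the mean level per kb of exon was 0.96 CPM per kb at Lefty1 and 12.1 at Lefty2.

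Lefty1 and Lefty2 share stretches of sequence, and fragments from those can be lost or shared between them, depending on how the authors' counting treated reads that map to both. Their coding sequences are 1104 bases each and differ at 90 bases (91.8% identity), and the longest identical run is 140 bases. Of the 50-base windows of the Lefty2 transcript 11.6% also occur in Lefty1, and of those of Lefty1 17.9% occur in Lefty2. The 3′ UTR differs in length, 1293 bases in Lefty2 and 428 in Lefty1.

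Nodal (chr10:60880720-60888086, plus strand), the ligand that the Lefty proteins block, held 6 and 1 counts in wild type, against 4 and 5 for KO1 and 7 and 8 for KO2. KO1 lay within the wild type range, and both KO2 libraries lay above it. The mean CPM was 2.98 ± 3.04 for wild type, 3.63 ± 0.663 for KO1 and 6.28 ± 0.247 for KO2 (SD, n = 2 each). The ratio to wild type was 1.23 (95% interval 0.407 to 3.88) in KO1 and 2.13 (0.817 to 6.17) in KO2, both intervals spanning no difference. Nodal did not pass the filter on low counts.

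The lines were also set against each other. These differences are a description too, without a test, because the loci were chosen from values of the same knockout libraries and those of Gm16263 and Gm17443 were known by then. The log2 fold change of KO1 over KO2 was -1.16 ± 0.33 at Gm16263 (standard error of the fit), and over all alternatives it ran from -1.26 to -1.05. At Lefty2 it was -1.28 ± 0.32, with a range of -1.34 to -1.21. KO1 was thus the lower line at both. At Gm17443 KO1 was the higher line, by 1.47 ± 0.42, with a range of 1.17 to 1.72. At Il17d the value was -0.11 ± 0.39, with a range of -0.5 to 0.39 that held both signs.

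Genes next to the loci were read for the same libraries. The nearest tested gene on either side within 250 kb was taken, and none was found for Gm16263 or Gm17443. Beside Il17d, 13994 bases to its left, lies 2310043D23Rik (chr14:58125581-58129672), opposite Ift88, a gene of the transport machinery of cilia. It held 35 and 30 counts in wild type, against 10 and 10 for KO1 and 18 and 23 for KO2. All knockout libraries lay below wild type in CPM, as at 10.1% of all tested genes, and KO1 lay below KO2. By quasi-likelihood test in edgeR, adjusted over all tested genes by Benjamini-Hochberg, it fell by 1.21 ± 0.26 on the log2 scale in the lines together (adjusted p 0.00301) and by 1.75 ± 0.33 in KO1 (adjusted p 0.000476), and was not called in KO2 (-0.67 ± 0.28, adjusted p 0.152). It was lower in KO1 than in KO2 (-1.08 ± 0.37, adjusted p 0.0377). Among all tested genes 3.89% were called lower in the lines together, 6.34% in KO1 and 3.97% in KO2, and 19.3% differed between the lines in either direction. Without the first wild type library the call in the lines together was lost (adjusted p 0.0933), as it was where the 4 knockout libraries formed a single group (0.383). The call between the lines was lost without any of the 4 knockout libraries (adjusted p 0.059 to 0.186).

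Beside Lefty2, no neighbour was called in the lines together. H3f3a, a histone H3.3 gene 79165 bases to its left, opposite Gm17275, held 8 and 15 counts in wild type, against 5 and 11 for KO1 and 8 and 5 for KO2 (log2 fold change -0.70 ± 0.46, adjusted p 0.445). 2210411M09Rik, 52961 bases to its right and opposite Tmem63a, held 35 and 36 counts in wild type, against 24 and 18 for KO1 and 23 and 26 for KO2. All its knockout libraries lay below wild type, as at 10.1% of all tested genes, but it did not pass the test (-0.68 ± 0.23, adjusted p 0.079). On the chromosomes of the 8 loci, the tested genes had a median log2 fold change within -0.1 to 0.12 of the median over all tested genes in every comparison.

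**Figure D3:**
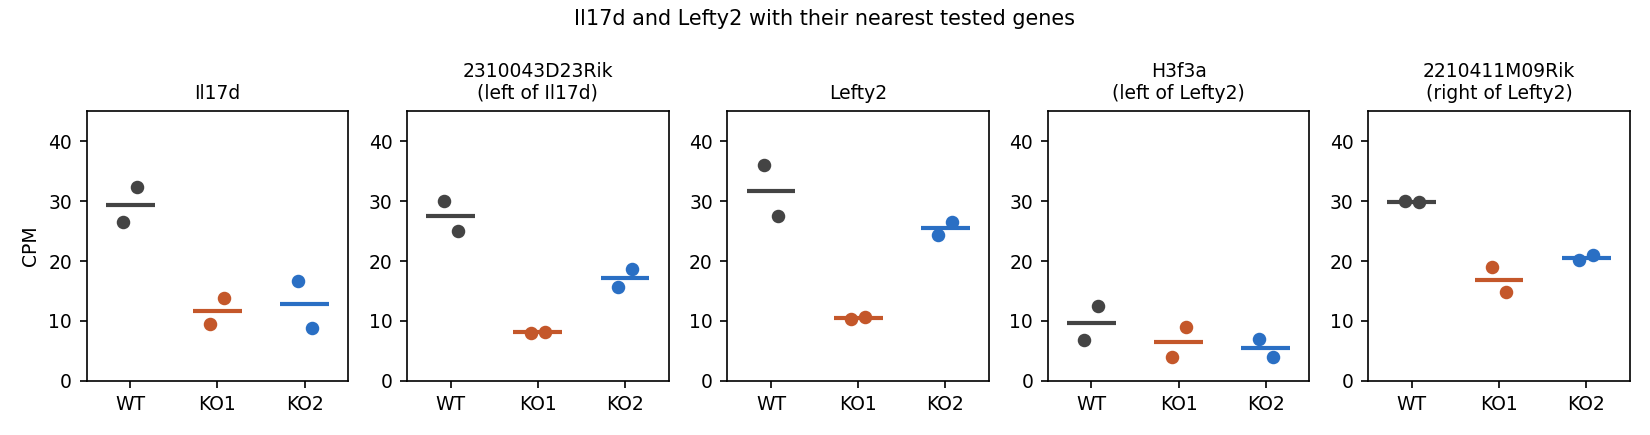
CPM in each library (points) and group means (bars of 2 libraries) for Il17d and Lefty2 beside their nearest tested genes, on a scale to 45 CPM. 2310043D23Rik, left of Il17d, has the order wild type, KO2, KO1, while the 2 genes flanking Lefty2 show no called difference in the lines together.

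The genes whose log2 CPM followed each locus most closely over the 6 libraries, among 3891 tested genes that averaged 10 CPM or more, were all on other chromosomes. Gm16263 was followed by AF085738, opposite the imprinted gene Gnas for a G protein subunit (Pearson r 0.995), and by AL845466.1, opposite Serf2 (0.991). AF085738 held 4972 and 5087 counts in wild type, against 3392 and 3401 for KO1 and 4180 and 4550 for KO2, so it shared the order of Gm16263 with a smaller spread. Gm17443 was followed by Fam63b (0.993) and by Gm5812, opposite Tulp4 (0.989), which held 21 and 20, 17 and 12, and 5 and 7 counts. Il17d was followed by Gm10300, opposite Epb4.1 (0.98), and by 4933437N03Rik (0.964). Lefty2 was followed by Gm17089, opposite the transcription factor gene Etv6 (0.996), and by Gm17629, opposite Ezh2 for the Polycomb methyltransferase (0.995). Gm17629 held 1250 and 1156 counts in wild type, against 846 and 818 for KO1 and 1004 and 1176 for KO2. These values come from 6 libraries in 3 groups and are a description of likeness only.

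Other genes of the FGF, ERBB, IL-17 and Nodal pathways and other secreted factors were read from lists chosen with earlier results of these data known, first by the symbol of the counted gene. With fragments taken to stem from the facing strand, counts by symbol need not measure the transcript of the listed gene itself. Of 257 listed genes in the annotation, 42 passed the filter, and none of the 42 was called in the lines together by edgeR. DESeq2 called none either, but it gave no adjusted p to 33 of the 42, which it could not call. An unadjusted edgeR p under 0.05 was reached by 2. Their median log2 fold change was 0.10, against -0.009 over all tested genes, of which 2.72% were called higher and 3.89% lower.

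In KO1, 2 of the 42 were called higher and none lower, where 3.46% of all tested genes were called higher and 6.34% lower. Errfi1, a feedback inhibitor of EGF receptor signalling, held 11 and 16 counts in wild type, against 42 and 26 for KO1 and 10 and 13 for KO2. It rose in KO1 (log2 fold change 1.26 ± 0.33, adjusted p 0.0104), was not called in KO2 (-0.24, adjusted p 0.8), and differed between the lines (1.5 ± 0.34, adjusted p 0.0018). Pdgfb, a platelet-derived growth factor gene, held 2 and 4 counts in wild type, against 14 and 13 for KO1 and 8 and 9 for KO2. It rose in KO1 (2.06 ± 0.59, adjusted p 0.0217) and did not pass in the lines together (1.76 ± 0.56, adjusted p 0.0524). The call of Errfi1 in KO1 was lost without the first wild type library (adjusted p 0.151) or the first KO1 library (0.24), and its call between the lines without the latter (0.085). That of Pdgfb was lost without any of the wild type and KO1 libraries (adjusted p 0.0544 to 0.171). DESeq2 called none of the 42 in KO1, and it gave Errfi1 an adjusted p of 0.211 there and 0.0609 between the lines.

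In KO2, 1 of the 42 was called lower and none higher, where 5.01% of all tested genes were called higher and 3.97% lower. This was Frs3, an adaptor of FGF receptors, which lies opposite Gm14873 and held 45 and 47 counts in wild type, against 50 and 46 for KO1 and 25 and 30 for KO2. It fell in KO2 by 0.75 ± 0.24 on the log2 scale (adjusted p 0.0483), a call that every alternative lost, and it was higher in KO1 than in KO2 (0.74 ± 0.24, adjusted p 0.0273). Mif, a cytokine gene, was lower in KO1 than in KO2 (-0.56 ± 0.20, adjusted p 0.0486). Between the lines 3 of the 42 were thus called, at a background of 19.3%. The calls of Frs3 and Mif between the lines were lost without any of the 4 knockout libraries (adjusted p 0.0732 to 0.138 and 0.124 to 0.168), and that of Mif also without either wild type library (0.0558 and 0.0555). DESeq2 called none of the 42 in KO2 or between the lines.

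By pathway, tested genes without a call in the lines together included Fgf17 (0.22 ± 0.22, adjusted p 0.647) and Fgf4 (0.48 ± 0.30, adjusted p 0.409), both FGF ligand genes. By symbols of the ERBB pathway they included the neuregulin gene Nrg4, opposite Fbxo22 (0.00 ± 0.06), and the protease gene Bace1, opposite Rnf214 (0.00 ± 0.07). By the strand taken here, fragments at Nrg4 and Bace1 would stem from the strand of Fbxo22 and Rnf214. The receptor gene Il17rb stood at 0.09 ± 0.28 (adjusted p 0.904) and the IL-17 receptor adaptor gene Traf3ip2 at 0.50 ± 0.36 (adjusted p 0.505). Counts per library were low at Fgf4 (12 to 34), Il17rb (18 to 28) and Traf3ip2 (8 to 24), so the missing calls say little there. For the Nodal pathway, the inhibitory Smad gene Smad7 stood at -0.10 ± 0.17 (adjusted p 0.821). None of the 11 tested genes with a symbol of the Nodal pathway was called in any of the 4 comparisons, whichever strand their fragments came from. Of all tested genes, 19.3% were called between the lines and 2.72% to 6.34% in each direction of the other comparisons. Several of the 11 held few counts per library, such as Furin (2 to 14), Smad3 (8 to 15) and Smad4 (8 to 17). The missing calls therefore say little about the pathway. Among other secreted factors, Bmp8b, opposite Ppie, stood at 0.14 ± 0.08 and Manf at -0.19 ± 0.09.

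By the gene opposite, as for Gm16263 and Gm17443, 19 counted genes lay opposite 18 listed genes and passed the filter. In the lines together 2 were called higher and 2 lower, against 2.72% and 3.89% of all tested genes. Their median log2 fold change was -0.16, against -0.009 over all tested genes. Gm15270, opposite Ctgf, which encodes a connective tissue growth factor, held 208 and 227 counts in wild type, against 188 and 159 for KO1 and 124 and 118 for KO2. It fell in the lines together by 0.62 ± 0.10 (adjusted p 0.000168), in KO1 by 0.39 ± 0.12 (adjusted p 0.0308) and in KO2 by 0.85 ± 0.13 (adjusted p 1.6e-05). 5430405H02Rik, opposite Tgif2, a repressor of TGF-beta responses, held 452 and 487, 505 and 434, and 311 and 365 counts. It fell in the lines together by 0.28 ± 0.07 (adjusted p 0.0176) and in KO2 by 0.48 ± 0.09 (adjusted p 0.00028). It was not called in KO1 (-0.07, adjusted p 0.696). Both genes were lowest in KO2. The KO2 calls of both held with any library left out, as did that of Gm15270 in the lines together. Its KO1 call was lost without any of the wild type and KO1 libraries (adjusted p 0.0645 to 0.257). The call of 5430405H02Rik in the lines together was lost without either wild type library, the second KO1 library or the first KO2 library (adjusted p 0.0605 to 0.192), and the calls of both genes there were lost with the 4 knockout libraries taken as 1 group (0.331 and 0.753). DESeq2 did not call 5430405H02Rik in the lines together (adjusted p 0.142).

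Gm16000, opposite the growth factor gene Pdgfc, held 76 and 79 counts in wild type, against 139 and 139 for KO1 and 105 and 90 for KO2. It rose in the lines together by 0.55 ± 0.14 (adjusted p 0.0138) and in KO1 by 0.77 ± 0.16 (adjusted p 0.000894). E130307A14Rik, opposite Traf3ip2, held 134 and 164, 223 and 219, and 172 and 185 counts, and rose in the lines together by 0.38 ± 0.11 (adjusted p 0.0275) and in KO1 by 0.50 ± 0.12 (adjusted p 0.00513). Both were highest in KO1, with KO2 between. The KO1 call of Gm16000 held with any library left out, while its call in the lines together was lost without either wild type library or the first KO2 library (adjusted p 0.0562 to 0.132). The calls of E130307A14Rik were lost without the first wild type library (adjusted p 0.374 in the lines together and 0.124 in KO1) or the second KO1 library (0.0796 and 0.0563), and in the lines together also without the first KO1 library (0.0617). DESeq2 did not make either call (adjusted p 0.151 in the lines together and 0.0847 in KO1).

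In KO1 the 19 gave 3 higher and 2 lower calls, against 3.46% and 6.34% of all tested genes. In KO2 they gave none higher and 3 lower, against 5.01% and 3.97%. DESeq2 called 2 of the 19 in KO1, 2 in KO2 and 3 between the lines. 6330403L08Rik, opposite Pdgfa, rose in KO1 (0.35 ± 0.08, adjusted p 0.00308), and Gm17480, opposite the neurotrophic factor gene Metrn, fell in KO1 (-0.27 ± 0.08, adjusted p 0.0395). Gm16712, opposite Ebi3, a subunit of the cytokines IL-27 and IL-35, held 59 and 59 counts in wild type, against 32 and 62 for KO1 and 34 and 28 for KO2, and fell in KO2 (-0.93 ± 0.26, adjusted p 0.0217). Between the lines 8 of the 19 were called, at a background of 19.3%. Among them, Gm17685, opposite the FGF ligand gene Fgf15, was lower in KO1 than in KO2 (-1.08 ± 0.31, adjusted p 0.0143), with 20 and 26 counts in wild type, against 15 and 14 for KO1 and 27 and 32 for KO2. Gm16159, opposite the receptor gene Fgfr1 (0.46 ± 0.13, adjusted p 0.0109), and Rnf214, opposite Bace1 (0.65 ± 0.19, adjusted p 0.0168), were higher in KO1. The difference between the lines held with any library left out at 6330403L08Rik, Gm17480 and 5430405H02Rik. It was lost without the first KO1 library at Gm17685 (adjusted p 0.0868), Gm16159 (0.347), Rnf214 (0.0695), Gm16000 (0.0913) and Gm15270 (0.147), and at each of these 5 genes also without at least 1 other knockout library (0.0684 to 0.325). The call of 6330403L08Rik in KO1 was lost without the second wild type library (adjusted p 0.0941) or the first KO1 library (0.0675), and that of Gm17480 without any of the wild type and KO1 libraries (0.0734 to 0.259). The call of Gm16712 in KO2 was lost without either wild type library or the second KO2 library (adjusted p 0.103 to 0.161), and without the second KO1 library, where it held 62 counts, it was also called in KO1 (0.0466) and in the lines together (0.0108).

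**Figure D4:**
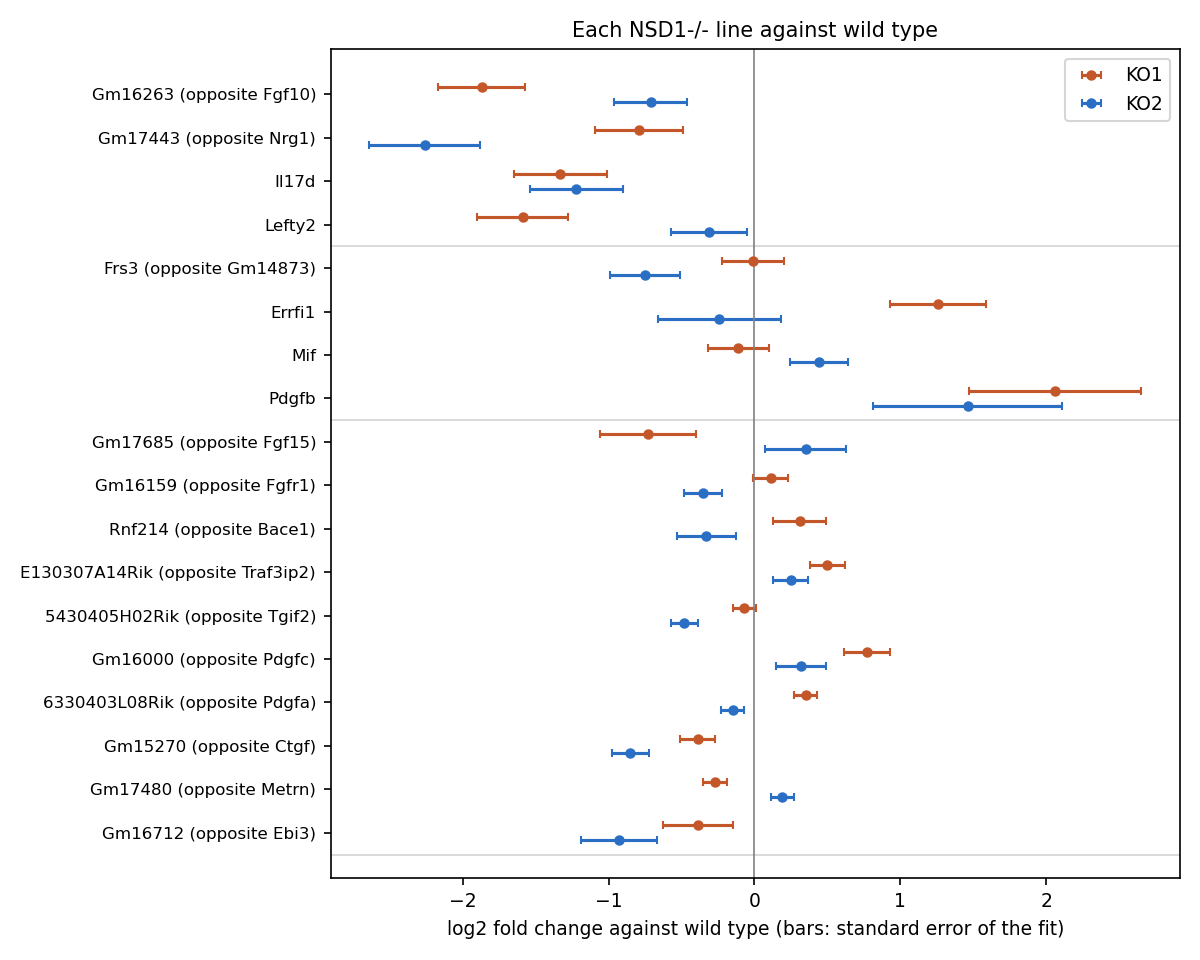
log2 fold change against wild type in KO1 and KO2, with standard errors of the fit as bars, for the 4 loci that passed the filter (top), the listed genes called in any comparison by their own symbol (middle) and those called by the gene opposite (bottom). The 4 loci lie left of 0 in both lines, from -2.26 to -0.31, while the listed genes lie on both sides.

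Promoter sequences of 300 bases (RefSeq, GRCm38.p6) were matched for 3 of the 8 genes, Fgf10, Il17d and Nodal. They were searched on both strands for AATNCACA, the letters bound by FOXH1, and CAGAC, those bound by SMAD proteins. Neither was found in the 3 promoters. Over 32851 promoters of the same length, 3.6% held the FOXH1 letters and 49.6% the SMAD letters.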

How the data were processed

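RNA-seq counts of 6 libraries were used; 44 other samples, from chromatin assays, were not analysed here. Per the file headers, the deposited values are raw counts per gene, which the authors made with featureCounts 2.0.1 over exons with a strand setting of 1 on GENCODE mouse annotation. Per the submitters' processing notes, the build was mm9 and STAR 2.5.4b and Trim Galore 0.6.4 were among the tools used. Spans and strands of all 37310 genes equalled GENCODE version M1. The headers name no option for reads that map to several places.

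Counts were fitted with edgeR 4.0.16 in R 4.3.3 (filterByExpr with a minimum count of 10, TMM, robust quasi-likelihood, a mean per group, 3 residual degrees of freedom), with Benjamini-Hochberg adjustment over 5034 genes and calls at an adjusted p under 0.05. The gene opposite has at least 50 bases of exon overlap on the other strand (bedtools 2.31.1). Errors with CPM are SDs over libraries, and ratios have exact binomial intervals. Alternatives were DESeq2 1.42.0, no filter, a replicate block, other libraries in the fit, each library left out, and library sizes without AY036118. The steps were tested on simulated counts.

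The loci and gene lists were chosen with earlier results of these data known. Named from the lists were all called genes, up to 10 per comparison, of 5 CPM or more in their highest group, and for a list with none the 2 with most counts. Of the genes so taken, 1 is not reported here.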

Additional observations from a re-analysis of the deposited data

Results flagged for a closer look

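KO1 and KO2 differed in their effect against wild type, by edgeR's test of KO1 against KO2, at 2310043D23Rik beside Il17d (log2 difference -1.08), as 19.3% of all tested genes did in either direction. By their own symbols the listed genes Errfi1 (1.5), Frs3 (0.74) and Mif (-0.56) differed. By the gene opposite, the lines differed at Gm17685 (-1.08, opposite Fgf15), Gm16159 (0.46, opposite Fgfr1), Rnf214 (0.65, opposite Bace1), 5430405H02Rik (0.42, opposite Tgif2, adjusted p 0.000805), Gm16000 (0.45, opposite Pdgfc, adjusted p 0.0305), 6330403L08Rik (0.5, opposite Pdgfa, adjusted p 2.51e-05), Gm15270 (0.46, opposite Ctgf, adjusted p 0.0126) and Gm17480 (-0.46, opposite Metrn, adjusted p 0.00012). Positive values are higher in KO1. Gm17480 stood below wild type in KO1 and above it in KO2, with 413 and 444 counts in wild type, against 393 and 354 for KO1 and 480 and 505 for KO2. Why the lines differ was not tested.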

How the results depend on the processing

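The log2 fold changes of Gm16263, Gm17443, Il17d and Lefty2 against wild type stayed below 0 under every alternative run, in the lines together and in each line; the value nearest 0 was -0.10, at Lefty2 in KO2, where the range was -0.49 to -0.10. For the lines together the ranges were -1.35 to -1.19 at Gm16263, -1.68 to -1.34 at Gm17443, -1.52 to -1.08 at Il17d and -1.13 to -0.74 at Lefty2. The number of called genes moved more. It was 333 for the lines together, 493 for KO1, 452 for KO2 and 971 between the lines, and DESeq2 called 113, 196, 170 and 402. With the 4 knockout libraries taken as a single group, so that differences between KO1 and KO2 enter the spread, 6 genes were called for the lines together. Leaving out a library gave 171 to 333 for the lines together, 257 to 558 for KO1, 263 to 395 for KO2 and 546 to 955 between the lines. Calls of listed genes by their own symbol, summed over KO1, KO2 and their difference so that a gene can count more than once, numbered 6, against 3 with no filter, 0 with DESeq2 and 0 to 3 with a library left out. Listed genes called by the gene opposite numbered 4 in the lines together, against 1 with DESeq2, 0 with a single knockout group and 1 to 4 with a library left out. Their calls summed over KO1, KO2 and the difference numbered 16, against 7 with DESeq2 and 11 to 18 with a library left out. DESeq2 gave no adjusted p to 33 of the 42 genes listed by their own symbol in the lines together, 17 in KO1, 23 in KO2 and 15 between the lines. Of the 19 listed by the gene opposite it gave none to 8, 3, 6 and 3. The cause of these shifts was not tested. Same-numbered libraries did not deviate together (correlations of 0.011, -0.007 and -0.036), so the numbers were not taken as pairs; with the replicate block 320, 482, 416 and 935 genes were called. Fgf10, Nrg1 and Lefty1, with at most 2 counts in a library, and Nodal, with at most 8, could not be compared closely at this depth.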
